A study of Mus musculus with 4 samples.

Results

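The miR-15 and miR-16 genes of the mouse form a pair of small clusters, and their 4 gene entries, mir-15a, mir-15b, mir-16-1 and mir-16-2, were taken by name from the 626 microRNA gene entries of the deposited table. All 4 had enough counts to be measured, as had 367 entries of the table in all. MicroRNAs were counted by small RNA sequencing in CGR8, a mouse embryonic stem cell (ESC) line that grows without feeder cells, with C57BL/6 given as the background strain and 129P2/OlaHsd as the donor strain, at passages 5 to 13. The day 0 group was ESCs in GMEM with leukemia inhibitory factor (LIF), the cytokine that holds mouse ESCs undifferentiated, at 100 U/ml and with 10% serum. The day 8 group was embryoid bodies (EBs), aggregates in which ESCs differentiate, made in IMDM with 20% serum and no LIF, in hanging drops of 1000 cells for 2 days and then in suspension for 6 days. Glutamine and beta-mercaptoethanol were in both media. No genetic change is described for either group, and all samples came from 1 cell line.

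A microRNA is cut from a hairpin in a longer transcript, and pairs with target mRNAs mainly through its seed, bases 2 to 8 of the mature strand. Members of the miR-15 and miR-16 family share a seed and are best known as brakes on the cell cycle, through targets such as cyclin D1, cyclin E1 and, in human leukemia cells, BCL2. In frog embryos miR-15 and miR-16 also lower a receptor of Nodal, a signal of the TGF-beta family, the subject named in the series title. The hairpin pair mir-15a and mir-16-1 lies in Dleu2, a long non-coding RNA gene, and the pair mir-15b and mir-16-2 lies in Smc4, which encodes a subunit of condensin, the complex that compacts mitotic chromosomes.

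The mature 5p strands are shown with the seed in capitals because every one of them carries the same seed and because mir-16-1 and mir-16-2 give 1 and the same strand. They are from RefSeq (GRCm38.p6), written 5′ to 3′, and all 4 gene entries were matched.
miR-15a-5p: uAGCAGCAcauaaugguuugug
miR-15b-5p: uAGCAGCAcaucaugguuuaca
miR-16-5p (mir-16-1 and mir-16-2): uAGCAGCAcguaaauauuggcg
No base differed among the 3 strands within the first 8 positions. Compared position by position from the 5′ end over 22 positions, miR-15a-5p and miR-15b-5p differed at 4, miR-15a-5p and miR-16-5p at 6, and miR-15b-5p and miR-16-5p at 8. Reads of miR-15a and miR-15b can thus be told apart by sequence, whereas a read of miR-16-5p fits both copies. The opposite, 3p strands differ between the copies, at 10 of 22 positions, as the hairpins show, with both mature strands in capitals.
Mir16-1: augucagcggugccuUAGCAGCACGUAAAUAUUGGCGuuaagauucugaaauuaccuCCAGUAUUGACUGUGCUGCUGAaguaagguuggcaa
Mir16-2: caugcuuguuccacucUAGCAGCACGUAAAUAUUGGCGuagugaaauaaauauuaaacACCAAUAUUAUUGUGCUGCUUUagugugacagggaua
The table has 1 entry per gene and does not say which strand a count came from.

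In GENCODE release M21 (GRCm38) the Mir15a hairpin lies at chr14:61632027-61632110 and Mir16-1 at chr14:61631880-61631972, both on the minus strand, like Dleu2, with 54 bases between them. Both were intronic in each of the 8 Dleu2 transcripts that span them. A further Dleu2 transcript has an exon that overlaps the Mir16-1 hairpin by 13 bases. Mir15b at chr3:69009772-69009835 and Mir16-2 at chr3:69009902-69009996 lie on the plus strand, like Smc4, with 66 bases between them, and were intronic in each of the 5 Smc4 transcripts that span them. The sources used here do not name the authors' build, so entries were matched to these genes by name.

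The labels name 2 samples per group, with microRNA totals of 557250 and 557643 counts in the ESC columns and 139104 and 139360 in the EB columns, so the EB columns were 4.0 times shallower. The columns of a group differed by less than sampling noise, with a chi-square per degree of freedom of 0.235 over 402 entries for ESC and 0.284 over 344 for EB, where independent libraries give about 1. The mean of each pair was thus used as a single sample. With 1 library per group the comparison has no estimate of the spread between samples and no p-value. The exact 95% intervals given below cover counting error only. They compare these libraries, not the conditions, and take the scaling between libraries as exact. Of the markers of undifferentiated mouse ESCs, 6 members of the miR-290 to miR-295 cluster took 53.0% of ESC and 52.0% of EB counts in sum. Within this near-equal sum 4 of the 6 were lower in the EB library by 2-fold or more after the scaling described below and 1 was higher by as much, with log2 folds from -2.89 to 2.04 and a median of -1.12. The miR-302 cluster, known from epiblast-stage cells, was at 0.0341% of ESC and 6.53% of EB counts. Of the markers of differentiated cells, the muscle entries were at 0.00215% and 0.00359%, and none of them had enough counts to be measured. The neural ones were at 0.957% and 0.188%, the liver and endoderm ones at 0.0805% and 0.0223% and the endothelial one at 0.250% and 0.347%. The blood entries were at 0.253% and 0.113%, with mir-144 and mir-451a at 0 in the EB library. The 2 measured blood entries went opposite ways, at log2 folds of -3.58 and 2.65 after the same scaling. Whether any of these shifts bears on the values of the 4 genes was not tested, and in such bulk samples fewer cells of a type and less RNA per cell cannot be told apart.

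miR-16 was among the most abundant microRNAs of the ESC library. In the EB library the summed miR-16 copies were 3.33-fold lower (3.20 to 3.46), mir-15a was 8.91-fold lower (6.51 to 12.5), and mir-15b differed by less than 2-fold. Together the 4 genes made up 6.33% of the ESC library (6.27 to 6.39, exact binomial) and 2.49% of the EB library (2.41 to 2.57). Folds were computed after TMM scaling (trimmed mean of M-values), under which log2 folds of EB over ESC are lower by 0.28 than under library totals. On that scale the summed counts of the 4 genes were 3.10-fold lower in the EB library (2.99 to 3.21). Of the 4, 3 were lower by 2-fold or more and none was higher by that much, and the median log2 fold was -1.73. Among these 3 are mir-16-1 and mir-16-2, copies of 1 microRNA and not separate evidence, and the median rests on them. Over all 367 measured entries 30.2% were lower by 2-fold or more and 33.5% higher, and the median log2 fold was 0.07. The genes were chosen with earlier results of these data known, so their count is a description.

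**Figure D1:**
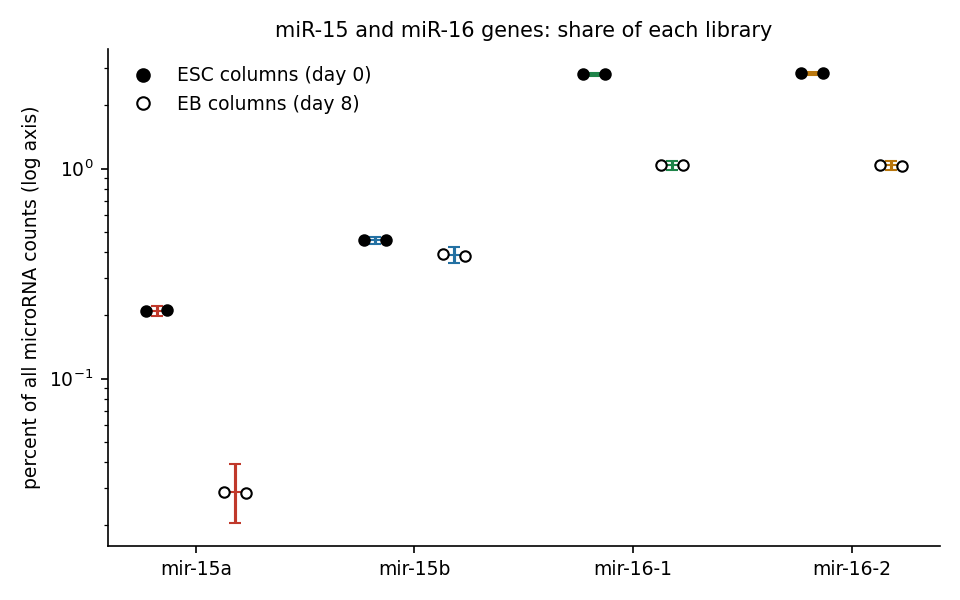
Share of all microRNA counts (percent, log axis) taken by each of the 4 genes, with a point for each deposited column (filled, ESC; open, EB); the coloured dash and bar are the mean of the columns and its exact 95% binomial interval. The ESC and EB shares are well apart for mir-15a, mir-16-1 and mir-16-2 and close for mir-15b, at 0.457% and 0.388%.

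The entries mir-16-1 and mir-16-2, copies that both yield the strand miR-16-5p, held most of these counts. mir-16-1 had 15704 and 15701 counts in the ESC columns and 1440 and 1443 in the EB columns. mir-16-2 had 15865 and 15870 counts in the ESC columns and 1444 and 1441 in the EB columns. Taken as shares, which allow for depth, mir-16-1 was at 2.82% in ESC (2.77 to 2.86) and 1.04% in EB (0.983 to 1.09), and mir-16-2 at 2.85% (2.80 to 2.89) and 1.04% (0.984 to 1.09). As shares both copies were higher in the ESC library than in the EB library, and since the columns of a group count as 1 sample, their closeness is no measure of the spread between samples. The TMM-scaled count of mir-16-1 was 3.31-fold lower in the EB library (3.14 to 3.50) and that of mir-16-2 was 3.34-fold lower (3.17 to 3.53). By count they stood at places 6 and 5 of the 626 entries in ESC and at 18 and 17 in EB. Only members of the miR-290 to miR-295 cluster were above them in the ESC library, mir-294 next above with 29327 counts, and mir-182, of an epithelial and sensory microRNA cluster, came next below with 12910. In the EB library mir-93, of the proliferation-linked miR-106b cluster, came next above with 1505 counts, and its ratio to mir-16-2 of 1.04 (0.970 to 1.12) is within counting error. There mir-290a came next below mir-16-1 with 1237 counts, at a ratio of 0.858 (0.795 to 0.927).

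The copies were closer to each other than counting error in either library. The ratio of mir-16-2 to mir-16-1 was 1.01 (0.988 to 1.03) in the ESC library and 1.00 (0.930 to 1.08) in the EB library, and their log2 folds differed by 0.01. Between the ESC columns mir-16-1 changed by -3 counts and mir-16-2 by 5, and their sum was 31569 in one column and 31571 in the other. Between the EB columns the changes were 3 and -3, and the sum was 2884 in both. Over the 9 numbered pairs of copies with at least 1000 summed ESC counts, the copies changed in opposite directions between the columns in 8 pairs for ESC and in 7 for EB. In 5 of these 9 pairs the ESC sum changed by less than either copy did. The sources used here do not say how the counter credited reads that fit both copies, and its rule was not tested. If they were credited to both, every sum over the copies counts them 2 times. For this reason the copies are not separate evidence, and their counts do not show how much miR-16-5p came from Dleu2 and how much from Smc4. In the 34 numbered pairs with both copies measured, the log2 folds of the copies differed by a median of 0.09, and by less than 0.1 in 18 pairs.

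mir-15a, the partner of mir-16-1 in Dleu2, had 1165 and 1181 counts in the ESC columns and 40 in each EB column. The EB value rests on few counts. Its share was 0.210% of the ESC library (0.199 to 0.223) and 0.0287% of the EB library (0.0205 to 0.0391), lower in the EB library. The TMM-scaled count was 8.91-fold lower in the EB library (6.51 to 12.5), a log2 fold of -3.16 (-3.65 to -2.70). Of the 367 measured entries, 8 had a lower log2 fold than mir-15a and 67 a lower one than mir-16-1. mir-15a stood at place 68 in the ESC library, between mir-30a with 1252 counts and mir-301a with 1096, and at place 186 in the EB library, beside mir-136 with 41 counts and mir-22 with 40. None of these neighbours differed from it beyond counting error.

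mir-15b, the partner of mir-16-2 in Smc4, had 2543 and 2547 counts in the ESC columns and 544 and 536 in the EB columns. At the greater depth of the ESC columns this was a share of 0.457% (0.439 to 0.475) in the ESC library and of 0.388% (0.356 to 0.422) in the EB library, a little lower in the EB library. The TMM-scaled count was 1.43-fold lower in the EB library (1.30 to 1.57), under the 2-fold threshold, and 141 measured entries had a lower log2 fold. A log2 fold of -0.52 under TMM became -0.24 under library totals and 0.07 in the authors' quantile-normalized values, so which way mir-15b differed turned on the scaling. In those deposited values mir-15b was at 1534.75 in both ESC columns and 1616 in both EB columns, whereas mir-15a was at 681.5 in both ESC columns and at 64.75 and 65.25 in the EB columns. By count mir-15b took place 33 among ESC entries and 32 among EB entries. Its neighbours were mir-92a-1 with 2692 counts and mir-378a with 2537.5 in the ESC library, and mir-34a with 546 and mir-135b with 524.5 in the EB library. Of these mir-92a-1 alone was apart from it by counting error, and narrowly so, at a ratio of 1.06 (1.00 to 1.12).

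**Figure D2:**
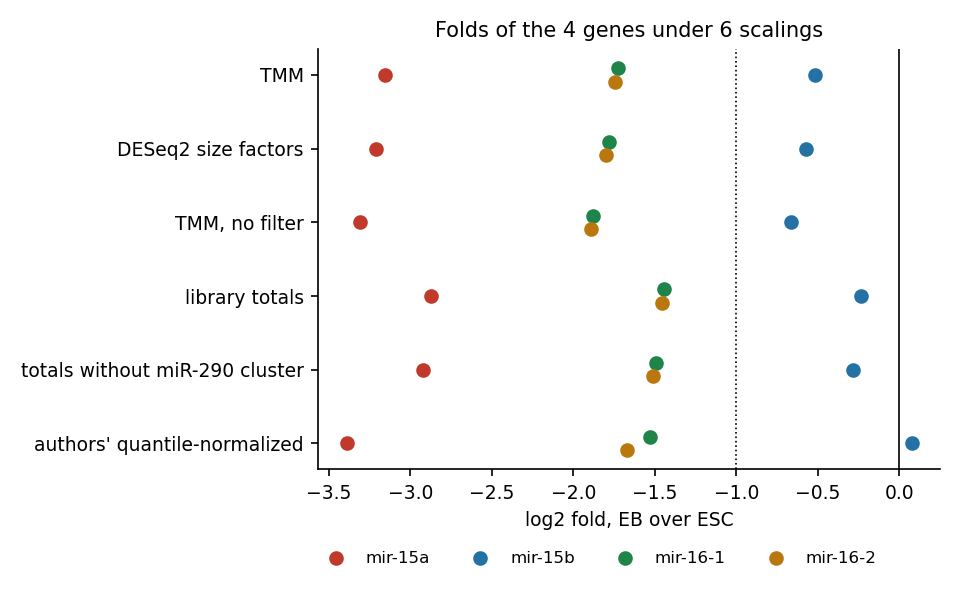
EB to ESC log2 fold (x axis) of each of the 4 genes under 6 scalings (rows); the solid line is no difference and the dotted line 2-fold lower. In each row mir-15a is farthest left and mir-15b farthest right, with mir-16-1 and mir-16-2 between them, and mir-15b crosses 0 with the authors' quantile-normalized values only.

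A ratio of counts within a library needs no scaling between the libraries, and such ratios set mir-15a, mir-15b and miR-16 apart. The ratio of mir-15a to mir-15b was 0.458 and 0.464 in the ESC columns and 0.0735 and 0.0746 in the EB columns. For the library means it was 0.461 in ESC (0.430 to 0.494) and 0.0741 in EB (0.0523 to 0.102), a ratio 6.22-fold lower in the EB library (exact conditional interval 4.47 to 8.87). Each of these entries has a 5p strand that none of the other members shares. The summed miR-16 count was 26.9 times that of mir-15a in ESC (25.4 to 28.6) and 72.1 times in EB (52.8 to 101), a 2.68-fold higher ratio (1.95 to 3.78). Against mir-15b it was 12.4 times in ESC (11.9 to 12.9) and 5.34 times in EB (4.87 to 5.87), a 2.32-fold lower ratio (2.10 to 2.57). With the copies averaged in place of summed, as would fit reads credited to both, miR-16 was 13.5 times mir-15a in ESC and 36.1 times in EB, and 6.20 and 2.67 times mir-15b, while the changes between the libraries stay the same by construction. The miR-16 sum therefore lay between the miR-15 genes in its EB to ESC difference, lower than mir-15b and less low than mir-15a. Within Dleu2 the ratio of mir-16-1 to mir-15a was 13.4 in ESC and 36.0 in EB, and within Smc4 that of mir-16-2 to mir-15b was 6.23 and 2.67, but both use counts of miR-16 that fit either locus.

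**Figure D3:**
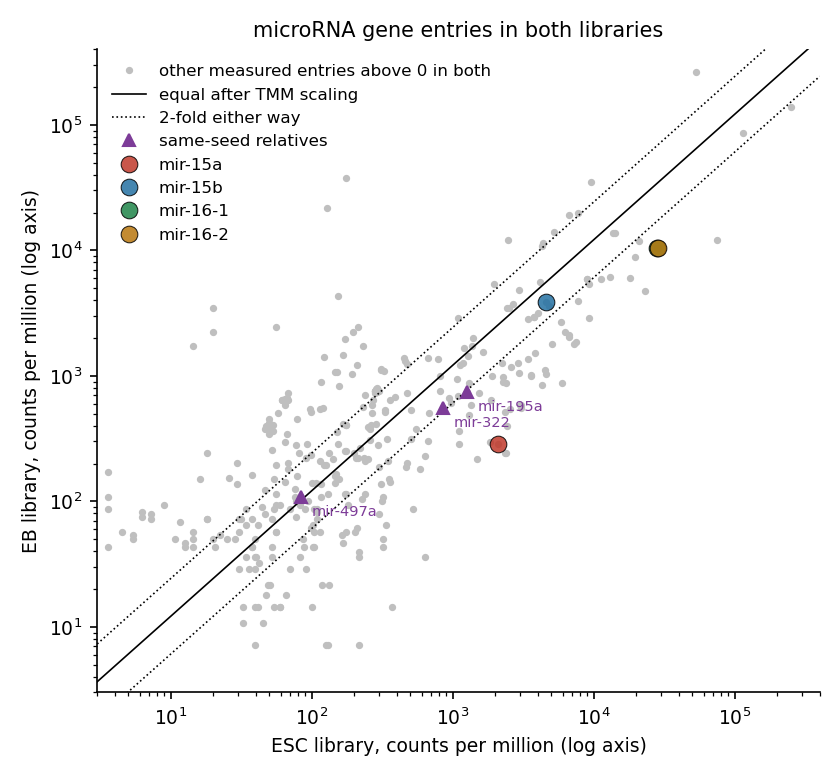
CPM of the measured entries above 0 in both libraries (ESC, x; EB, y; log axes), with the 4 genes as large coloured points, same-seed relatives as triangles, the line of equal TMM-scaled level and dotted lines 2-fold either way. mir-16-1 lies under mir-16-2 at the upper right, mir-15b lies between the dotted lines and mir-15a well below them.

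The same seed is found in other mouse microRNAs. Of 1674 distinct mature strands in RefSeq, 10 carried it at bases 2 to 8, from 11 genes, of which 8 have an entry in the table. The relatives measured here are shown with the seed in capitals, to set them beside the strands above.
miR-195a-5p: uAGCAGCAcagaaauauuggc
miR-322-5p: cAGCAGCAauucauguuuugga
miR-497a-5p: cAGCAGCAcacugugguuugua
The closest to a member was miR-195a-5p, which differed from miR-16-5p at 2 of 21 positions, both after the seed. The other strands differed from miR-16-5p at 10 (miR-322-5p) and 11 (miR-497a-5p) of 22 positions.

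The relatives were scarce beside the 4 genes, and their summed counts differed less between the libraries than those of the 4 genes did. mir-195a, known from mouse heart for arresting the division of heart muscle cells after birth, had 701 and 699 counts in the ESC columns and 103 in each EB column, or shares of 0.126% and 0.125% against 0.0740% and 0.0739%. Its TMM-scaled count was 2.07-fold lower in the EB library (1.68 to 2.57). With library totals its log2 fold was -0.76, under 2-fold, and in the quantile-normalized values it was -1.24. mir-322, the mouse counterpart of human miR-424, had 476 counts in each ESC column and 76 and 78 in the EB columns. It was 1.88-fold lower with TMM (1.47 to 2.42). Its log2 fold was -0.91 with TMM, -1.06 with TMM and no filter and -1.36 in the quantile-normalized values. There the sum of the 4 genes was at -1.42, so how far these relatives stood from the 4 genes depended on the scaling. mir-497a, the cluster partner of mir-195a, had 47 counts in each ESC column and 15 in each EB column, and its interval of log2 folds, -0.87 to 0.93, included no difference. A log2 fold of 0.07 with TMM became -0.08 with no filter and -0.24 after quantile normalization, so no direction held over the scalings. mir-195b had 0 counts in both ESC columns and 1 in each EB column, which is under the floor of 3 counts. In all, 1 of the 3 measured same-seed relatives was lower by 2-fold or more, none was higher by that much, and their median log2 fold was -0.91. Beside the 30.2% of all measured entries that were lower by as much, 1 of 3 is near the background share. Their summed TMM-scaled count was 1.90-fold lower (1.63 to 2.22).

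The make-up of the shared-seed counts differed between the libraries. These entries together had 36511 ESC and 3660 EB counts. mir-16-1 and mir-16-2 made up 86.5% of them in ESC (86.1 to 86.8) and 78.8% in EB (77.4 to 80.1). mir-15b made up 6.97% in ESC (6.71 to 7.24) and 14.8% in EB (13.6 to 15.9), and mir-15a 3.21% (3.03 to 3.40) and 1.09% (0.782 to 1.49). The part of mir-195a was 1.92% in ESC (1.78 to 2.06) and 2.81% in EB (2.30 to 3.40). With the miR-16 copies averaged, an alternative added after the data were seen, miR-16 made up 76.2% in ESC (75.6 to 76.7) and 65.0% in EB (63.0 to 67.0), mir-15b 12.3% and 24.3%, and mir-15a 5.66% and 1.80%. Thus, counted either way, mir-15b held a larger part of the family in the EB library and mir-15a a smaller one, while miR-16 was the largest part in both libraries. Summed over the family, the TMM-scaled count was 3.03-fold lower in the EB library (2.93 to 3.14).

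**Figure D4:**
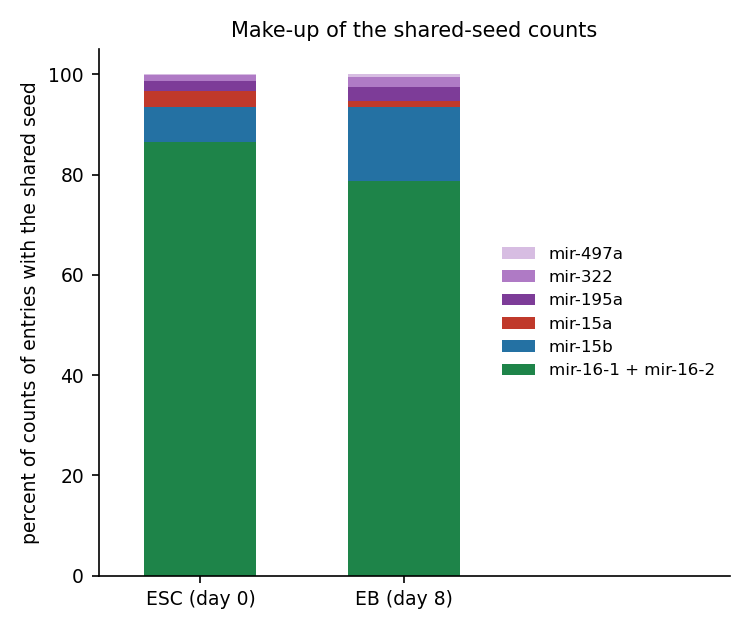
Percent of the counts of all entries with the shared seed (y axis, stacked to 100) taken by each entry in the ESC and EB libraries; mir-195b, with at most 1 count, is not drawn. mir-15b takes 6.97% of the ESC bar and 14.8% of the EB bar.

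Some microRNAs have a seed that is near to that of miR-15 and miR-16 without being the same. The strands below are shown because miR-503-5p shares bases 2 to 7 of the seed, in capitals with the base that differs, and because miR-103-3p and miR-107-3p hold the 7 seed letters, in capitals, at bases 1 to 7.
miR-503-5p: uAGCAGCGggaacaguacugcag
miR-103-3p: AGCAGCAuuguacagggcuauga
miR-107-3p: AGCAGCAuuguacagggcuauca
mir-503, the cluster partner of mir-322, had 532 and 542 counts in the ESC columns and 85 and 83 in the EB columns. The copies mir-103-1 and mir-103-2, made from introns of pantothenate kinase genes, had 4974 to 4978 counts in the ESC columns and 817 to 827 in the EB columns, and mir-107 had 608 and 611 and then 93 and 99. After TMM scaling none of the 4 was 2-fold lower or higher, with a median log2 fold of -0.92 and single values from -0.96 to -0.87, where 30.2% of all measured entries were lower and 33.5% higher by 2-fold or more. The values of mir-503, mir-103-1, mir-103-2 and mir-107 with no filter were -1.11, -1.03, -1.02 and -1.10, past 2-fold, so the threshold separates them by little. In the authors' quantile-normalized values they were -1.42, -0.47, -0.36 and -1.38, so their closeness depended on the scaling. Their log2 folds lie between those of mir-16-1 and mir-15b.

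**Figure D5:**
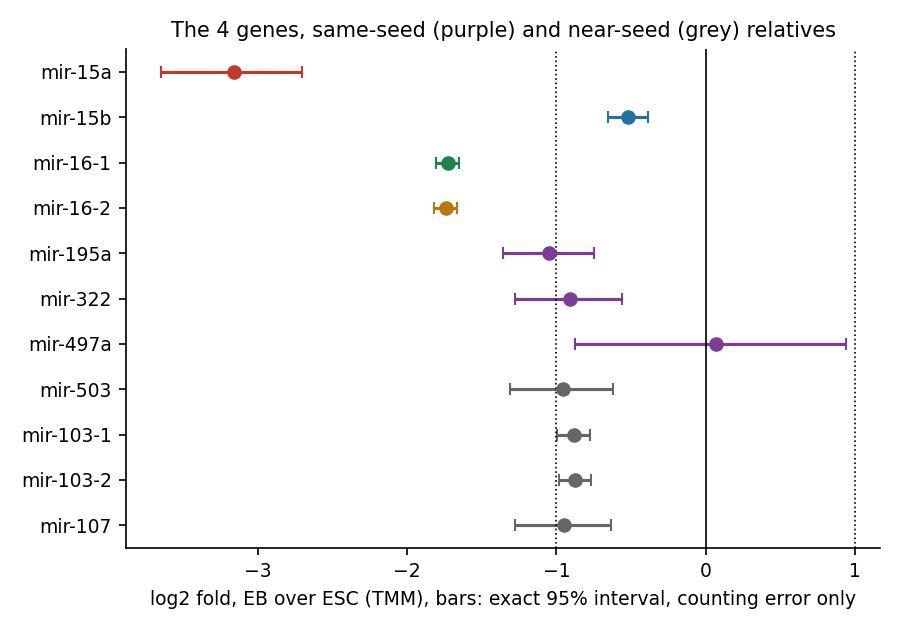
EB to ESC log2 fold after TMM scaling (points) with exact 95% intervals of counting error (bars) for the 4 genes, the 3 measured same-seed relatives and the 4 near-seed relatives; the dotted lines mark 2-fold. mir-15a, mir-16-1 and mir-16-2 lie left of the other entries, and the interval of mir-497a spans 0.

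Other microRNAs known to slow the step from G1 to S phase of the cell cycle, the let-7, miR-34, miR-449 and miR-26 genes, were taken as a list. Of its 20 entries 17 were measured: 3 were lower in the EB library by 2-fold or more, 3 were higher by as much, and 11 differed by less, and their median log2 fold was -0.48. Over all 367 measured entries 30.2% were lower and 33.5% higher by 2-fold or more, a larger share in either direction than in the list. The lower ones were mir-34a, a target gene of p53, at a log2 fold of -1.27 (-1.40 to -1.14), and the let-7c copies, let-7c-1 with 8 and let-7c-2 with 6 EB counts. The higher ones were mir-34b at 2.24 (1.66 to 2.83), mir-34c at 2.12 (1.71 to 2.54) and mir-449a at 4.30 (2.14 to 7.50), the last on 2 ESC and 12 EB counts. These 6 names were picked once the values were known. The 3 measured miR-26 entries had log2 folds from -0.70 to -0.62. The lowest log2 fold of the list was that of let-7c-2, at -1.55 (-3.06 to -0.35), above that of mir-15a.

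Among the 90 other measured entries with a mean CPM (counts scaled to a common library total) of at least 1000 over the libraries, those most like each gene were found by the absolute difference of the EB to ESC log2 fold, a measure that rests on 1 library per group. Nearest to mir-15a were mir-23a at -3.03, mir-27a at -2.91 and mir-145a at -2.90, and none of them had a log2 fold as low. Nearest to mir-15b were mir-101b at -0.55, mir-409 at -0.48 and mir-26a-2 at -0.62. Nearest to the summed miR-16 copies, at -1.73, were mir-378c at -1.74, mir-672 at -1.76 and mir-25 at -1.77. mir-23a had 3287 ESC and 122 EB counts, and its interval of -3.31 to -2.77 held the value of mir-15a.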

How the data were processed

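Small RNA of 4 samples was sequenced on an Ion Torrent PGM from about 100 ng per library, per the labels' protocols. Original counts per microRNA gene were deposited by the authors without normalization, per the file headers. The normalized signal deposited by the authors held largely the same values in every column, as quantile normalization gives. The sources used here do not give the aligner, counter, build or microRNA release. Counts from the mir-664 row on sat 1 row too low, over 170 rows, and were moved up. The entry mir-99b, left without counts, was rebuilt as the 1 of 7280 candidate sets that repeats every normalized value of the first ESC column. The 4 genes lie above those rows.

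Columns of a group were compared wherever the pair had 10 counts or more, and then averaged. Nothing in the labels says that the samples of a group came from separate cultures. Entries were filtered with filterByExpr (minimum count 10, minimum total 15) and scaled with TMM in edgeR 4.0.16, with 2-fold as the threshold for higher or lower. Intervals (95%) are Clopper-Pearson or exact conditional ones on mean counts, and cover counting error only, with 1 library per group. PCR copies were counted without molecular identifiers, which the intervals do not allow for. In counts over many entries a group at 0 was set to a floor of 3. The fold calculation was tested on simulated counts with counting error only and with the true scaling given. The TMM scaling itself was not tested there. Named entries were the 4 genes, the lists of relatives, the 3 entries nearest in log2 fold, and the entries next above and below by count. The members and lists were chosen with earlier results of these data known. Alternatives were other scalings, no filter, each column left out, rows as deposited, mir-99b left out, and tests with 4 columns as samples in edgeR and DESeq2 1.42.0. Other tools were scipy 1.17.1 with numpy 2.4.6 in Python 3.11.15, pandas 2.3.3, matplotlib 3.10.9 and R 4.3.3.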

Additional observations from a re-analysis of the deposited data

How the results depend on the processing

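In all alternatives run, mir-15a, mir-16-1 and mir-16-2 stayed lower in EB by 2-fold or more, with log2 folds of -3.39 to -2.87, -1.88 to -1.44 and -1.89 to -1.46, and mir-15b stayed under 2-fold. Of 63 log2 folds, 38 kept within the counting interval, 24 moved beyond it in the same direction and 1 reversed, mir-15b at 0.074 in the quantile-normalized values. The other moved values there were -1.53 for mir-16-1 and -1.42 for the sum of the 4 genes. With library totals mir-15b was at -0.24, mir-16-1 at -1.44, mir-16-2 at -1.46 and the sum at -1.35. With totals that leave out the miR-290 to miR-295 cluster they were at -0.29, -1.49, -1.51 and -1.40, and with no filter at -0.67, -1.88, -1.89 and -1.78. With DESeq2 size factors the sum was at -1.69. Leaving out 1 column gave -3.22 to -2.88 for mir-15a, -0.57 to -0.23 for mir-15b, -1.78 to -1.45 for mir-16-1, -1.79 to -1.47 for mir-16-2 and -1.68 to -1.35 for the sum. TMM was recomputed each time, since library scaling is part of that alternative. Without EB replicate 2 mir-15b was at -0.23 and the sum at -1.35, near their values with library totals. As the columns of a group count as 1 sample, these ranges are no measure of the spread between samples. The numbers of entries at least 2-fold higher (106 to 141) and lower (96 to 134) stayed within 1.5 times the main ones. With the miR-290 to miR-295 cluster left out of the total, the shares in ESC and EB were 0.457% and 0.0602% for mir-15a, 0.991% and 0.813% for mir-15b, 6.11% and 2.17% for mir-16-1, 6.18% and 2.17% for mir-16-2 and 13.7% and 5.22% for their sum, by construction. With the miR-16 copies averaged in place of summed, the ratio of miR-16 to the summed miR-15 entries was 4.25 in ESC and 2.49 in EB, in place of 8.49 and 4.97, also by construction. No paired analysis was possible because the results come from no test across samples. The 40 EB counts of mir-15a limit its precision, and with 1 library per group the spread between samples is not known.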
